A study of Mus musculus with 6 samples.

Results

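Islet hormones and secretory granule proteins were followed through 6 genes: Ins2, Gcg, Iapp, Ppy, Chgb and Pcsk1n. Their members were the probes whose only gene symbol in the annotation of the array was one of these names, 14 of the 21888 probes in the table. There were 3 probes each for Ins2 and Gcg and 2 each for Iapp, Ppy, Chgb and Pcsk1n. All 14 had a value on at least 4 of the 6 arrays and entered the test with 21247 probes in all. The pancreas was taken at embryonic day 12.5 from homozygous Sox4-/- mouse embryos and from wild-type embryos of the same litters, and organs were pooled into 2 groups before RNA isolation, as the labels of arrays 1 and 2 state. Sox4 is a transcription factor with an HMG box that binds DNA. The sources used here do not give the strain or the number of embryos. Both RNAs were hybridised to every array, the wild-type RNA in channel 1 and the other in channel 2, so each probe has 1 log2 ratio per array. The study asked how gene expression differs across the genome without Sox4.

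Values are read as knockout over wild type. This direction is only likely: it rests on the order of the channels and the sample titles, and no source used here gives it or the dyes. Arrays may repeat 1 pair of RNA pools, and p-values then measure array-to-array spread that may be technical. Each RNA kept its channel on all arrays, so channel bias at a probe and a true difference cannot be told apart. The deposited medians ran from -0.006 to 0.203 over the 6 arrays, and every array was centred on its median before the values below. Of the 21247 tested probes, 1166 passed a limma adjusted p of 0.05, 416 above 0 (1.96%) and 750 under 0 (3.53%), together 5.49%. At an unadjusted p of 0.05 the share was 27.6%. Without centring the split was 849 above and 409 under 0, since centring removed 0.10 on average. The table holds ratios without intensities, so neither the level of a hormone nor the presence of pancreatic transcripts could be read from it.

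Islet cells make each hormone as a longer precursor, pack it into dense-core granules and cut it there with prohormone convertases. Insulin and islet amyloid polypeptide (Iapp) share the granules of beta cells, glucagon is made by alpha cells and pancreatic polypeptide by PP cells. Chromogranin B (Chgb) is a matrix protein of these granules, and Pcsk1n encodes proSAAS, a precursor that can inhibit prohormone convertase 1. Neurons and gut endocrine cells use the same granule proteins. In the mouse, the first endocrine cells of the pancreatic buds are mostly glucagon cells, and the main wave of beta cells comes later.

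The sequences just before the start of transcription are shown for a beta cell hormone, an alpha cell hormone and a granule protein, since the knockout removes a factor that binds DNA. RefSeq promoters matched 5 of the 6 genes, and Ins2 was not matched. Each line below gives the 250 bases before the start, 5′ to 3′ on the strand of the gene, in build GRCm38.p6: chr6:142298175-142298424 on the plus strand for Iapp, chr2:62483654-62483903 on the minus strand for Gcg and chr2:132781392-132781641 on the plus strand for Chgb. Capitals mark TAAT, a core read by homeodomain factors, ACAAT, the core of Sox sites, and TGACGTCA, the cyclic AMP response element, each searched on both strands (as ATTA and ATTGT on the other strand).
Iapp: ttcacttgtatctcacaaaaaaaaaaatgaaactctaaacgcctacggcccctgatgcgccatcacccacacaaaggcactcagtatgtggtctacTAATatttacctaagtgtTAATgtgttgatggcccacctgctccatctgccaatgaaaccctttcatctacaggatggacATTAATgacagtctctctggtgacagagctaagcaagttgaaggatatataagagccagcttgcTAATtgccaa
Gcg: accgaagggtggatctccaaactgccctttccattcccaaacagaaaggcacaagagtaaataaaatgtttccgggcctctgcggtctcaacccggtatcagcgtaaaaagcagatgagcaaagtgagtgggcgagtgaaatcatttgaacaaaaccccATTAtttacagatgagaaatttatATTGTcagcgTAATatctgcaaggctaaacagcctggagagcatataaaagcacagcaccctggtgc
Chgb: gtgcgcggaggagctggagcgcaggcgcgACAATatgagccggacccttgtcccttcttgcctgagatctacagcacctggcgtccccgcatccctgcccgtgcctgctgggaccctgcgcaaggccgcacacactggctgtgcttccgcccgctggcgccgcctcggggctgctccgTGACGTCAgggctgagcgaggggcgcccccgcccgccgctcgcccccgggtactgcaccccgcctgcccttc
The Iapp stretch held TAAT 5 times, first at 154, 136, 74, 72 and 10 bases before the start, with the matches at 74 and 72 overlapping on opposite strands. Gcg held TAAT at 91 and 57 bases and ACAAT at 67 bases before the start. The Chgb stretch, with 72.8% G and C against 42.8% for Iapp and 44.8% for Gcg, held ACAAT at 221 bases and TGACGTCA at 72 bases before the start and no TAAT. Pcsk1n held TAAT 2 times and Ppy none of the 3 motifs. Of 32851 stretches of this length, 54.9% held TAAT, 27.7% ACAAT and 1.55% TGACGTCA. These matches describe letters and were not tested against the ratios.

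Among the members, 3 probes passed the threshold, all above 0: 2 of the 3 Ins2 probes and 1 of the 2 Pcsk1n probes. The background was 1.96% of all tested probes above 0 and 3.53% under 0. None passed under 0, where the limma fit also gave 0 members at an unadjusted p of 0.05, against 5 of 14 above 0. Over all tested probes that share was 13.6% above 0 and 27.6% on either side. Counted as genes with at least 1 such probe, 2 of 6 members were above 0, beside 3.25% of the 10818 named genes tested (8.21% on either side). Of the 12 member probes with a value on all 6 arrays, 4 had all 6 values above 0, beside 8.57% of all probes so measured. Means were above 0 at 11 of 14 member probes and at 53.7% of all tested probes. By their names, 8 of the 14 member probes come from rows A to C of source plate MMC01. The 20 other tested probes of those rows had a median mean of 0.34, with 16 above 0, which is near the Iapp means of 0.37 and 0.28 given below. Their means ran from -0.33 to 1.12, and those of Ins2 probes MMC01B05 and MMC01C04, 0.52 and 0.68, lay within this range. These 20 include probes of Amy2, an acinar gene, and of Pax4, Pax6 and Prox1, so they are no neutral background. Their spread varied. The highest mean, Prox1 MMC01B10, was 1.12 ± 1.16 (SD, n = 4), and MMC01B02, without a gene name, was at 0.85 ± 0.10 (n = 6). The part of the row level in the member ratios was not tested. The median of means over the whole plate was 0.12, so setting plate medians to 0 does not remove the level of those rows. With every plate's median set to 0 on each array, Ins2 probe MMC01B05 was at 0.50 with a limma adjusted p of 0.142, and Ins2 probe ZX-00125L01 and Pcsk1n probe ZA-00026E22, from other plates, passed. In whole-organ RNA, more cells of a type and more RNA per cell cannot be told apart.

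**Figure D1:**
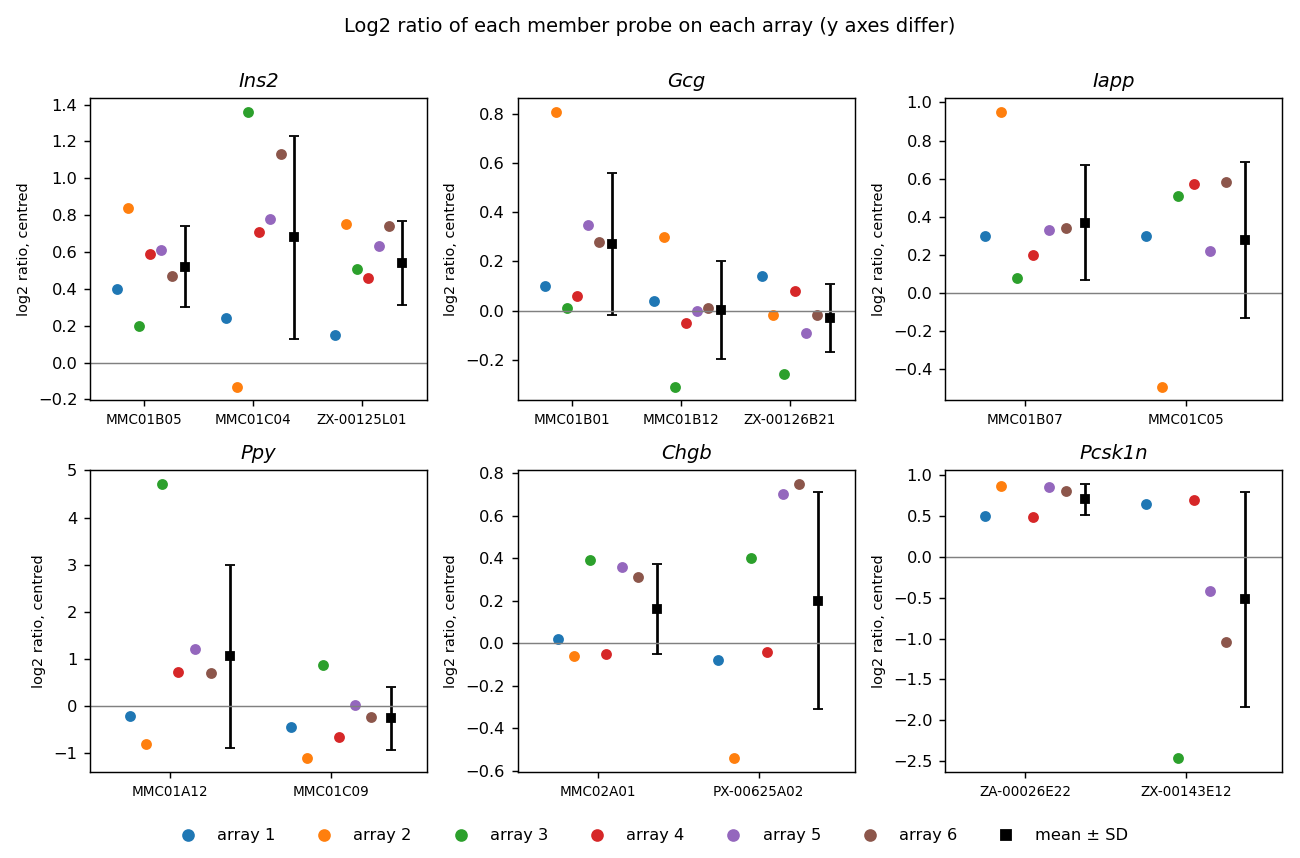
Median-centred log2 ratio (y axis, a scale of its own in each panel) of the 14 probes of the 6 genes (x axis) on each of 6 arrays (coloured points), with the mean ± SD as black squares. Both Ins2 probes that passed lie above 0 on all arrays, while the third Ins2 probe, both Ppy probes and Pcsk1n probe ZX-00143E12 spread widely.

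Ins2, an insulin gene, was above 0 at each of its 3 probes. Probe MMC01B05 had log2 ratios of 0.40, 0.84, 0.20, 0.59, 0.61 and 0.47 on arrays 1 to 6. No array was under 0, and the lowest value, on array 3, stood apart from the highest, on array 2. Its mean was 0.52 ± 0.22 (SD, n = 6), a 1.43-fold higher ratio with a limma adjusted p of 0.0373. Probe ZX-00125L01, of another accession, had values of 0.15, 0.75, 0.51, 0.46, 0.63 and 0.74. Again every array was above 0, with array 1 the lowest. The mean was 0.54 ± 0.23 (n = 6), 1.46-fold, with a limma adjusted p of 0.0363.

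The remaining Ins2 probe, MMC01C04, had the highest mean of the 3 and the widest spread. Its values were 0.24, -0.13, 1.36, 0.71, 0.78 and 1.13, so arrays 3 to 6 were high and array 2 was under 0. The mean of 0.68 ± 0.55 (n = 6) did not pass, with a limma adjusted p of 0.091. Averaged over its 3 probes on each array, Ins2 ran from 0.26 to 0.78, with a mean of 0.58 ± 0.19 (n = 6) and all arrays above 0. Its limma adjusted p was 0.0281 among gene means, of which 5.72% passed on either side. Ins1, a close copy of Ins2, was the only symbol of no tested probe, and its share in the signal of the Ins2 probes was not tested.

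The calls for Ins2 depended on the arrays used. Without array 1, 3, 4, 5 or 6, the limma adjusted p of MMC01B05 was 0.0737, 0.07, 0.0945, 0.106 or 0.103, and without array 2 it was 0.0444. That of ZX-00125L01 ran from 0.0504 to 0.105 over the 6 fits, and that of the gene mean was 0.0443 without array 2 and 0.0544 to 0.0873 otherwise. Over all probes the count of 1166 went to 18, 45, 11, 10 or 13 without array 1, 3, 4, 5 or 6, and to 1072 without array 2. The means stayed between 0.45 and 0.58 and between 0.50 and 0.62.

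Iapp, whose peptide is stored and released with insulin, also had means above 0 at both probes, and neither passed. Probe MMC01B07 had values of 0.30, 0.95, 0.08, 0.20, 0.33 and 0.34, a mean of 0.37 ± 0.30 (n = 6) and a limma adjusted p of 0.112. Probe MMC01C05 had values of 0.30, -0.49, 0.51, 0.57, 0.22 and 0.58, a mean of 0.28 ± 0.41 (n = 6) and a limma adjusted p of 0.276. On array 2 the first of these probes was at its highest and the second at its lowest. Without array 2, MMC01C05 was at 0.43 with a limma adjusted p of 0.0464, and MMC01B07 was at 0.25 with all arrays above 0. The mean of both probes on each array ran from 0.23 to 0.46. This gene mean was 0.32 ± 0.08 (n = 6), a 1.25-fold higher ratio, and it passed with a limma adjusted p of 0.0386. Without array 1, 3, 4, 5 or 6 its adjusted p ran from 0.0809 to 0.107, and without array 2 it was 0.0468. The narrow spread of the gene mean includes array 2, where values on opposite sides were averaged.

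Gcg, which encodes the glucagon precursor, lay near 0 at 2 of its 3 probes. Probe ZX-00126B21 had values of 0.14, -0.02, -0.26, 0.08, -0.09 and -0.02. Its mean was -0.03 ± 0.14 (n = 6), with a 95% interval from the limma fit of -0.21 to 0.15. Probe MMC01B12 had values of 0.04, 0.30, -0.31, -0.05, 0.00 and 0.01, and its interval was -0.21 to 0.21. Neither interval reached beyond 0.21 on the log2 scale in either direction. The probe MMC01B01, of the same accession as MMC01B12, had values of 0.10, 0.81, 0.01, 0.06, 0.35 and 0.28. All of its arrays were above 0, with a mean of 0.27 ± 0.29 (n = 6) and a limma adjusted p of 0.194. Array 2 was its highest value, and without it the mean was 0.16.

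Ppy, for pancreatic polypeptide, had 2 probes of one accession with means on opposite sides of 0. Probe MMC01A12 had values of -0.22, -0.81, 4.72, 0.72, 1.20 and 0.70, and probe MMC01C09 had values of -0.45, -1.11, 0.86, -0.65, 0.01 and -0.23. Array 2 was the lowest and array 3 the highest at both probes. The deposited ratios behind the array 3 values were 29.0 and 2.0. The means were 1.05 ± 1.94 and -0.26 ± 0.67 (n = 6 each), with limma adjusted p of 0.346 and 0.511. Without array 3, the mean of MMC01A12 was 0.32. With 95% intervals of -0.56 to 2.66 and -0.83 to 0.31, a difference in Ppy was not detectable at this spread.

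Chgb, the granule matrix protein, had means of 0.16 and 0.20 at its 2 probes, and neither passed. Probe MMC02A01 had values of 0.02, -0.06, 0.39, -0.05, 0.36 and 0.31, an SD of 0.21 (n = 6) and a limma adjusted p of 0.299. Its Entrez identifier in the annotation did not match the mouse gene table, unlike those of the other 13 probes. The probe may thus be annotated to the gene of another species, and whether it measures mouse Chgb was not tested. Probe PX-00625A02 had values of -0.08, -0.54, 0.40, -0.04, 0.70 and 0.75, an SD of 0.51 and a limma adjusted p of 0.518. Arrays 3, 5 and 6 were high and arrays 1, 2 and 4 near or under 0 at both probes.

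Pcsk1n, the proSAAS gene, passed at probe ZA-00026E22. This probe had no value on array 3 and values of 0.50, 0.86, 0.48, 0.85 and 0.80 on arrays 1, 2, 4, 5 and 6. All 5 were above 0, in a narrow range. The mean was 0.70 ± 0.19 (SD, n = 5), a 1.62-fold higher ratio with a limma adjusted p of 0.0302. The other probe, ZX-00143E12, had no value on array 2 and values of 0.64, -2.46, 0.69, -0.42 and -1.04 on the remaining arrays. Arrays 1 and 4 lay close to the first probe there, and arrays 3, 5 and 6 lay under 0. Its mean was -0.52 ± 1.31 (n = 5), with a limma adjusted p of 0.526.

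The Pcsk1n call also depended on the arrays used. Without array 1, 4, 5 or 6 the limma adjusted p of ZA-00026E22 was 0.0651, 0.0793, 0.0953 or 0.0973, and without array 2 it was 0.0437. Leaving out array 3 changed none of its own values, yet the adjusted p rose to 0.0614 at an unadjusted p of 0.000363. The mean stayed between 0.66 and 0.75.

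**Figure D2:**
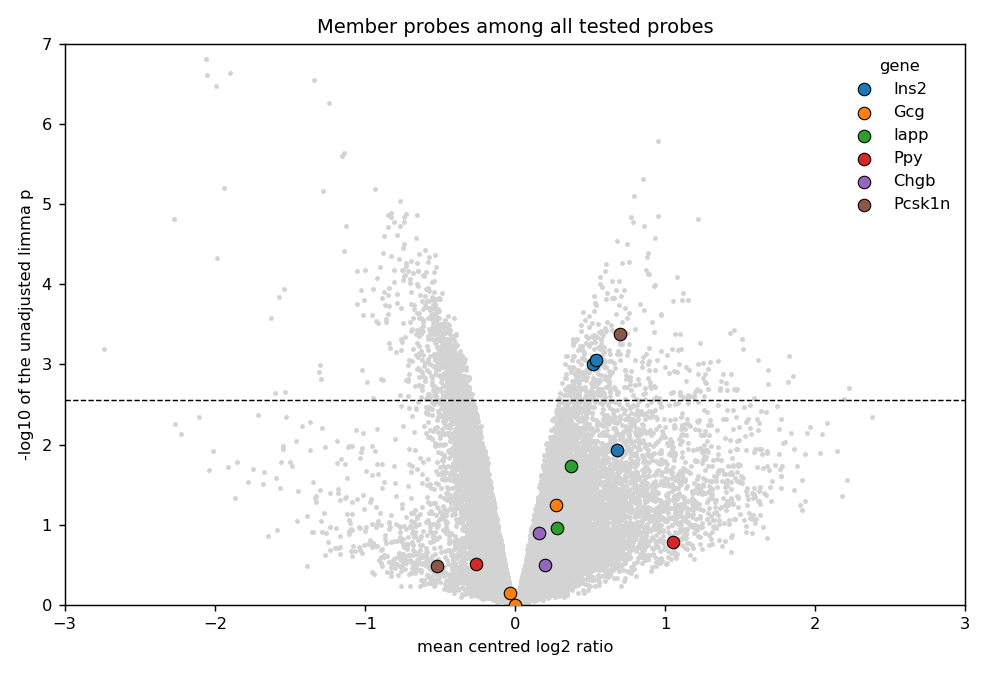
Mean centred log2 ratio (x axis) against -log10 of the unadjusted limma p (y axis) for all 21247 tested probes in grey and the 14 member probes in colour by gene. The dashed line is where the adjusted p reaches 0.05: 2 Ins2 probes and 1 Pcsk1n probe lie over it, to the right of 0.

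Some deposited ratios equal a quotient of whole numbers up to 20, as ratios of small whole-number signals would. Over the 14 member probes 15.9% of values were such quotients, and over all tested probes 22.6% were. They numbered 2 of 6 values at each Ins2 probe that passed, 0 of 5 at Pcsk1n probe ZA-00026E22, 3 of 5 at Pcsk1n probe ZX-00143E12 and 3 of 6 at Ppy probe MMC01A12. The Gcg probes had none. At MMC01A12 the deposited ratio of 29.0 on array 3 is over 20, so it could not be counted as such a quotient. Other ratios can also fall on such a quotient by chance, and that share was not counted. The part of such ratios in the results was not tested beyond these counts.

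The order of the 6 genes by the mean over their probes was Ins2 at 0.58, Ppy at 0.40, Iapp at 0.32, Chgb at 0.18, Gcg at 0.08 and Pcsk1n at -0.06. Without array 3 the means of Ppy and Pcsk1n were -0.08 and 0.42. The Pcsk1n value rests on a single probe on arrays 2 and 3, a different one on each. Differences between genes were tested within arrays for all 15 pairs with an exact two-sided permutation test that flips the sign of each array's difference. Its smallest possible p with 6 arrays is 0.0312. Ins2 exceeded Gcg by 0.50 ± 0.30 (SD, n = 6), on every array, with an exact p of 0.0312 and an adjusted p of 0.234. Ins2 exceeded Chgb by 0.40 ± 0.25, also on every array, with the same exact and adjusted p.

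Iapp lay between these genes. Ins2 exceeded Iapp by 0.26 ± 0.16 and Iapp exceeded Gcg by 0.24 ± 0.22, each on 5 of 6 arrays with an exact p of 0.0625 and an adjusted p of 0.234. No pair differed past the adjusted threshold, which this design could meet only if 10 of the 15 pairs reached the smallest p, so this says nothing of whether the genes differ. The pairs with Ppy or Pcsk1n had SDs from 1.09 to 2.49, so those genes have no firm place in the order.

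Probes of one gene were compared the same way over 10 pairs, of which 7 would have to reach the smallest p for an adjusted p under 0.05. The smallest possible exact p was reached at 2 of them. Gcg MMC01B01 exceeded MMC01B12 by 0.27 ± 0.16 and Ppy MMC01A12 exceeded MMC01C09 by 1.31 ± 1.33, each on 6 of 6 arrays, with an exact permutation p of 0.0312 and an adjusted p of 0.156. Both are pairs of wells that carry one accession. The 2 Ins2 probes that passed differed by -0.02 ± 0.23, from -0.32 to 0.25 over the arrays, with an exact permutation p of 0.812.

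The 6 arrays fall into 2 sets by their labels, arrays 1 and 2 with a full protocol and arrays 3 to 6 with a short description. Both sets gave means above 0 for the 3 probes that passed. For arrays 1 and 2 against arrays 3 to 6, the means were 0.62 and 0.47 at Ins2 MMC01B05, 0.45 and 0.59 at Ins2 ZX-00125L01, and 0.68 and 0.71 at Pcsk1n ZA-00026E22. Ins2 MMC01C04 differed more between the sets, at 0.06 and 1.00, a difference of -0.94 (limma p 0.00831, adjusted p 0.307). The unadjusted p for Chgb PX-00625A02, at -0.31 and 0.45, was 0.0347, with an adjusted p of 0.318. No probe of the whole table passed an adjusted p of 0.05 for this difference (0%), while 15.4% were at an unadjusted p of 0.05. With the set as a term, Pcsk1n ZA-00026E22 passed, and the Ins2 probes were at adjusted p of 0.0506 and 0.0537 (limma).

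**Figure D3:**
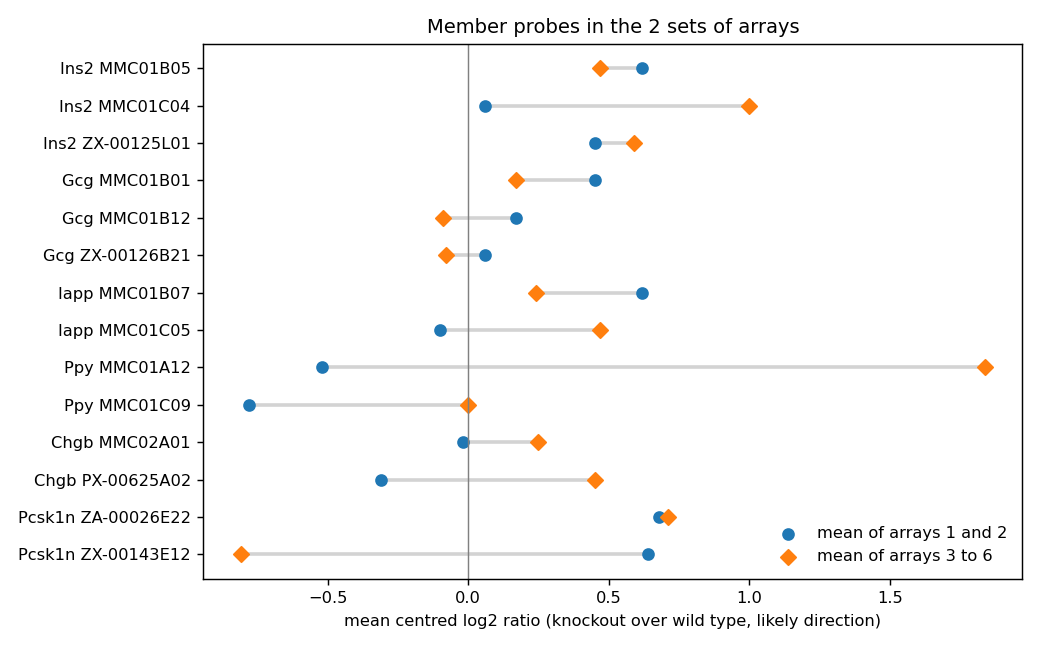
Mean centred log2 ratio (x axis) of each member probe (y axis) over arrays 1 and 2 (circles) and over arrays 3 to 6 (diamonds). The 3 probes that passed have both means between 0.45 and 0.71, while the Ppy probe MMC01A12 goes from -0.52 to 1.84.

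Other hormone and granule genes were read from 6 lists of islet and gut hormones, granins, processing enzymes, granule membrane, exocytosis and glucose sensing. Without the members, 29 of 77 listed genes were measured by their listed symbols. Of these, 2 had a probe past the threshold above 0 and 3 under 0, beside 3.25% and 5% of all named genes. The median of the 29 gene means was 0.07 against 0.05 over all named genes. Penk was not among the 29, since its probe MMC02D09 carries the older symbol Penk1. That probe was at 0.48 ± 0.56 (n = 6; limma adjusted p 0.18). Gip, a gut incretin hormone, was at 0.59 ± 0.21 (n = 6; limma adjusted p 0.0303) at probe ZX-00127J15, from 0.35 to 0.81 over the arrays. Its other probe was at 0.31. Gast, for gastrin, was on the opposite side. It passed at 4 of 7 probes, at -0.62, -0.53, -0.47 and -0.43, with every array under 0 at each, and its other probes were at -0.15, -0.08 and -0.02.

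Somatostatin and ghrelin, the other islet hormones measured, did not pass. Sst was at 0.07 ± 0.29 (n = 6; limma adjusted p 0.702) at its 1 tested probe, and Ghrl at -0.34 and -0.33, with adjusted p of 0.0937 and 0.0503. Among granins, Scg2 was at 0.43 ± 0.58 and the 5 probes of Scg5, the chaperone of a prohormone convertase, ran from -0.21 to 0.10, none past the threshold. None of 4 measured processing enzymes passed, and Cpe, the carboxypeptidase that trims prohormones, was at 0.35 and 0.07, with a limma adjusted p of 0.06 at the first.

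Of the granule membrane list, 3 genes were measured. Atp6ap2, an accessory subunit of the proton pump, was at -0.61 ± 0.28 and Tmed10, a cargo receptor of the early secretory pathway, at -0.44 ± 0.22 (n = 6 each; limma adjusted p 0.0379 and 0.0482). Both act in many cell types. Ptprn2, a granule phosphatase-like protein, was at 1.15 ± 0.82 with a limma adjusted p of 0.0652, with 66.7% of its ratios small quotients. In the exocytosis list Rims2, a scaffold of the release site, was at 1.10 ± 0.55 (n = 5; limma adjusted p 0.0469), with 60% of its ratios small quotients, and the other 5 measured genes did not pass. Slc2a2, the glucose transporter of beta cells and liver, was at -0.52 and -0.35, with adjusted p of 0.0686 and 0.0817.

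Lists of markers of other cell types also had genes past the threshold. Of 6 measured neuron and neural crest genes, 3 (Elavl4, Uchl1 and Tubb3) passed above 0 at 1 probe each, at 0.90, 0.44 and 0.39. The passing Elavl4 probe had values on 4 arrays, 50% of them small quotients. Other probes of these genes did not pass, at -0.02, 0.52 and 0.65 for Elavl4, 0.19 for Uchl1, and 0.34 and -0.05 for Tubb3. Ncam1 passed under 0 at -0.44 and -0.38, while the list's median on an array ran from 0.04 to 0.27. Of 13 measured acinar genes, 4 passed under 0, with array medians from -0.29 to 0.01, and of 8 liver genes 4 did, with array medians from -0.65 to -0.48. The mesenchyme list had 1 of 6 measured genes under 0, the erythroid list 1 of 7 above 0, and the endothelium, duct and gut lists had none of 3, 3 and 7. Over all named genes the shares were 3.25% above and 5% under 0. A gene counts with 1 passing probe, and the acinar and erythroid lists hold 50 and 55 probes. The part of these cell types in the hormone ratios was not tested, and the table gives no summed level.

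**Figure D4:**
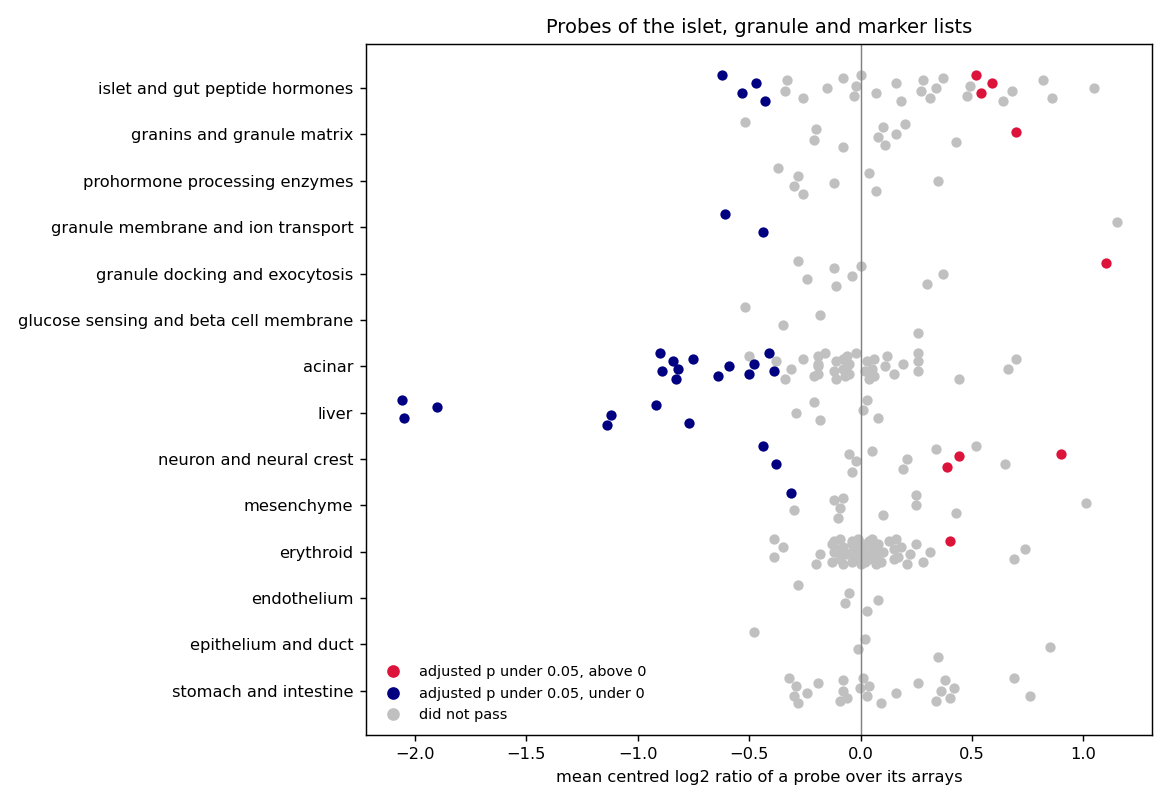
Mean centred log2 ratio (x axis) of every tested probe of the 6 hormone and granule lists and 8 marker lists (y axis), in red where the adjusted p was under 0.05 above 0, in blue where it was under 0.05 under 0 and in grey otherwise; vertical scatter within a list has no meaning. Hormone probes that passed lie on both sides, from -0.62 for Gast to 0.59 for Gip.

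Genes most like each member were found by the root mean square distance between gene means over the 6 arrays, among 9733 genes measured on all of them. Nearest to Ins2 were Cp, Cdc6 and Syce2, at distances of 0.123, 0.125 and 0.133 on the log2 scale. Nearest to Iapp were Nif3l1, Dchs1 and Gsk3b, from 0.055 to 0.081, and nearest to Gcg were Tmem94, Selenoh and 2810004N23Rik, from 0.040 to 0.043. Chgb lay nearest to Fbxo22, Ift43 and Ppp1r11, Ppy to Ctsr, B230119M05Rik and Stk36, and Pcsk1n to 3110009F21Rik, Ptpre and 2900052N01Rik. Of the members, Iapp was nearest to Ins2, at 0.297, and 173 other genes lay nearer to Ins2 than that. These distances describe 6 ratios per gene, from arrays that may share RNA pools.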

How the data were processed

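RNA from embryonic pancreas, pooled according to the labels of arrays 1 and 2, was compared on 6 spotted arrays with 2 channels. Per the labels, the RNA of arrays 1 and 2 was amplified linearly and labelled indirectly. The deposited table holds log2 ratios, read as log2 because its ceiling of 16.61 is log2 of 1e+05. The sources used here do not give background correction, normalization, dyes, direction or genome build. Ceiling values (40 to 257 probes per array) were set to missing, arrays were centred on their medians, and probes with at least 4 values were kept. Intensities were not used here, so signal over background is unknown and the number of arrays limits the precision.

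Each probe's ratios were set against 0 in limma 3.58.1 under R 4.3.3 (lmFit and eBayes, intercept only, two-sided), with Benjamini-Hochberg adjustment over 21247 probes and a threshold of 0.05. The fit was tested on simulated data. Quotients of whole numbers up to 20 were counted within 6e-04 in log2. Symbols were updated by Entrez ID for 17786 of 18388 probes with 1 symbol. Another 66 probes had several symbols and 3434 none, and neither were named.

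Members and gene lists were chosen with earlier results of these data known. Named were all member probes, other hormone and granule genes past the threshold, and the 3 nearest genes of each member. Further genes that did not pass and the marker genes were chosen after their values were seen. Alternatives were no centring, scaling to one spread, quantile normalization, values on 2 or 6 arrays, arrayWeights, eBayes with the robust option, limma's treat at 0.2, gene means, the ceiling kept, the array set as a term or alone, removal of probes mostly of small quotients, and each array left out. Setting each source plate's median to 0, and leaving out arrays or centring for gene means, were added after seeing the data.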

Additional observations from a re-analysis of the deposited data

Results flagged for a closer look

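Among the 14 member probes and 6 gene means, 4 of 20 had 1 array whose gap to the nearest value took up most of the range (Dixon's 95% limit, 0.625 for 6 arrays and 0.71 for 5). About 1 in 20 would do so by chance. Iapp probe MMC01B07 had 0.95 on array 2 while its remaining values lay between 0.08 and 0.34. The other Iapp probe, MMC01C05, was at -0.49 on the same array, against 0.22 to 0.58. Ppy probe MMC01A12 had 4.72 on array 3, with -0.81 to 1.20 elsewhere. The mean over the Pcsk1n probes was -2.46 on array 3, where only ZX-00143E12 had a value, against -0.12 to 0.86.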

How the results depend on the processing

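Of the 3 member probes that passed, each kept its sign under all alternatives run, with means of 0.45 to 0.62 for Ins2 MMC01B05, 0.45 to 0.64 for Ins2 ZX-00125L01 and 0.64 to 0.79 for Pcsk1n ZA-00026E22. Their calls were less stable. The number of member probes past the threshold, all above 0, was 3 as reported, 1 with the array set as a term, and 0 against a log2 change of 0.2, with arrays 3 to 6 alone or with arrays 1 and 2 alone (4, 7 and 3 at an unadjusted limma p of 0.05, of which Ppy MMC01C09 with arrays 1 and 2 alone was under 0, at -0.78). Leaving out 1 array in turn gave 0 to 3. Ins2 MMC01B05 also lost its call with plate medians set to 0 (0.50, limma adjusted p 0.142), where Ins2 MMC01C04 passed (0.66, 0.0353). MMC01C04 also passed with array weights (0.75, 0.0324).

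Over all probes, the count of 1166 (416 above 0, 750 under 0) was 1786 with arrays scaled to one spread (1191 under 0) and 2402 with array weights (892 and 1510). It was 695 with the set as a term (402 under 0), 619 with 1 value per gene (252 and 367), and 37 against a log2 change of 0.2 (9 and 28). Arrays 3 to 6 alone gave 13 (3 and 10), and arrays 1 and 2 alone gave 0 (2953 at an unadjusted limma p of 0.05). Without centring, 849 were above 0 and 409 under 0, 67.5% above 0 against 35.7%. Leaving out each array gave 10 to 1072 probes, 2 to 351 above 0 and 8 to 721 under 0. Each fit without 1 array left the same number of arrays, with 1072 probes passing without array 2 and 10 to 45 without any other. The cause of these changes was not tested. Array 2 had the largest median absolute deviation of log2 ratios, 0.368 against 0.182 to 0.298 on the other arrays. Its array weight was the lowest, 0.367 against 0.744 to 2.348.

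Signs turned only at member probes and gene means that had not passed. Gcg MMC01B12 was at -0.01 with arrays scaled to one spread, -0.01 with quantile normalization, -0.02 with array weights, -0.003 with the ceiling kept, -0.09 with arrays 3 to 6 alone, -0.02 with plate medians set to 0, and -0.06 to 0.06 with each array left out. Gcg ZX-00126B21 was at 0.07 without centring, 0.000768 with array weights, 0.06 with arrays 1 and 2 alone, 0.06 with plate medians set to 0, and -0.06 to 0.02 with each array left out. With arrays 1 and 2 alone, Iapp MMC01C05 was at -0.10, Ppy MMC01A12 at -0.52, Chgb MMC02A01 at -0.02 and Chgb PX-00625A02 at -0.31. The mean over the Ppy probes ran from -0.08 to 0.67 with each array left out, and that over the Pcsk1n probes from -0.24 to 0.42 and was 0.05 without centring. The cause was not tested. No paired analysis was possible because there is 1 group of ratios and no second group to pair with it by replicate number; each ratio already sets the RNAs of 1 array against each other.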

Other observations

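Of the 14 member probes, 8 come from the source plate named MMC01 in the probe names, and on array 2 these 8 split by well. The median of the plate's 72 tested probes on that array was -0.44. Wells B01 (Gcg), B05 (Ins2) and B07 (Iapp) were at 0.81, 0.84 and 0.95, well B12 (Gcg) was at 0.30, and wells C04 (Ins2), C05 (Iapp), A12 (Ppy) and C09 (Ppy) were at -0.13, -0.49, -0.81 and -1.11. The 2 wells of Ins2 and the 2 wells of Iapp, each pair of one accession, thus lay on opposite sides of 0 on this array. On array 3 the order was turned, with Ins2 at 0.20 in well B05 and 1.36 in well C04, and Iapp at 0.08 in well B07 and 0.51 in well C05. The plate's medians on arrays 1 and 3 to 6 ran from -0.09 to 0.28. The pattern was noticed in these values and not tested.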
